A study of Sus scrofa with 4 samples.

Results

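The miR-29 family of the pig, miR-29a, miR-29b and miR-29c (mir-29a, mir-29b and mir-29c in the files), was followed through adipogenic induction of primary vascular stem cells from 2 tissues. Its members were the Sus scrofa hairpin entries of that name, and each of the 3 had 1 entry in every library, out of 189 miRNAs with a read in at least 1 library. The cells were at passage 1 and came from subcutaneous fat (SVSC) or from longissimus dorsi, a back muscle (IVSC), although the labels name the cell type of all cultures as adipose-derived. They were sequenced undifferentiated or after MDI, a differentiation medium given 2 days after confluence that held the phosphodiesterase inhibitor IBMX at 0.5 mM, the glucocorticoid dexamethasone at 0.25 µM and insulin at 5 mg/l. IBMX and dexamethasone were withdrawn after 3 days, growth medium came back at day 6, and the cells went on for 3 or 4 more days, without a record of which applied to which culture. All 4 groups, SVSC MDI, SVSC, IVSC MDI and IVSC, were grown in medium with 20% serum, and IVSC were plated more densely than SVSC. Each group was 1 small RNA library (n = 1). The sources used here do not say whether any cultures shared an animal.

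miR-29 miRNAs share a seed, the bases near the 5′ end that pair with target mRNAs, so their predicted targets overlap widely. They are best known as repressors of extracellular matrix genes, among them fibrillar collagens, elastin and fibrillin, and TGF-β lowers them in fibroblasts. They also repress the de novo DNA methyltransferases. In mouse adipocytes, raised miR-29 reduces insulin-stimulated glucose uptake, and in mouse myoblasts it promotes differentiation. In the RefSeq pig gene table (assembly Sscrofa11.1, used here for names and neighbours only), MIR29A (gene 100498781) and MIR29B-1 (gene 100316554) are neighbours, and so are MIR29B-2 (gene 104794428) and MIR29C (gene 100316569). The file entry for miR-29b carries the name that RefSeq gives as a synonym of MIR29B-1. MIR29B-2 was not analysed here as a hairpin of its own, so the partner of miR-29c could not be read separately, and mature reads of miR-29b can come from either locus.

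The libraries held 2573249 (SVSC MDI), 17937121 (SVSC), 14810112 (IVSC MDI) and 13252168 (IVSC) miRNA reads, the scale of the CPM values given here. All 5 mesenchymal and smooth muscle markers (miR-143, miR-145, miR-199a, miR-199b, miR-214) had reads in every library, with summed levels between 262057 and 409082 CPM. Nearly all of these sums was miR-143. It had 1004338 of the 1052671 marker reads in SVSC MDI and 4586638 of 4700540 in SVSC. In IVSC MDI it had 5745046 of 5950403, and in IVSC 4638069 of 4763106. The endothelial miR-126 lay between 52.6 and 134 CPM, the 2 blood cell markers with reads (of 4) summed to between 7.97 and 34.9 CPM, and the epithelial miR-205 had 2 to 9 reads. The neuronal miR-9 lay between 12.7 and 77.3 CPM, highest in SVSC MDI, and the liver miR-122 between 1.94 and 24.1 CPM, highest in SVSC. miR-144 and miR-223 of the blood cell list, the other 4 epithelial markers and the neuronal miR-124 were not analysed here. Ensembl non-coding RNAs took 38.5% of all deposited reads in SVSC MDI, against 15.7% in SVSC, 14.0% in IVSC MDI and 19.3% in IVSC.

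miR-29a made up most of the family in every library. It stood at 3194 CPM in SVSC MDI, 2958 CPM in SVSC, 3255 CPM in IVSC MDI and 2489 CPM in IVSC, ranks 22, 17, 17 and 26 of the miRNAs of those libraries. The level was lowest in undifferentiated muscle-derived cells, and the other 3 libraries lay close together. The exact 95% counting intervals of the MDI libraries overlapped, 3125 to 3264 CPM in SVSC MDI and 3226 to 3285 CPM in IVSC MDI, and no other pair did. All intervals given here reflect the error of counting alone, because reads were amplified by PCR without molecular identifiers and do not stand for independent molecules.

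miR-29b, the cluster neighbour of miR-29a, stood at 621 CPM in SVSC MDI, 917 CPM in SVSC, 1108 CPM in IVSC MDI and 659.7 CPM in IVSC. The order differed from that of miR-29a: IVSC MDI was highest, SVSC followed, and SVSC MDI and IVSC were lowest. The intervals of these lowest 2, 591 to 652 CPM in SVSC MDI and 646 to 674 CPM in IVSC, overlapped.

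miR-29c was the rarest member. It had 90 reads (35.0 CPM; 28.1 to 43.0) in SVSC MDI, 256 reads (14.3 CPM; 12.6 to 16.1) in SVSC, 791 reads (53.4 CPM; 49.8 to 57.3) in IVSC MDI and 493 reads (37.2 CPM; 34.0 to 40.6) in IVSC. IVSC MDI was again highest, undifferentiated fat-derived cells were lowest, and the intervals of SVSC MDI and IVSC overlapped. Together the family took 0.385% of miRNA reads in SVSC MDI, 0.389% in SVSC, 0.442% in IVSC MDI and 0.319% in IVSC.

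**Figure D1:**
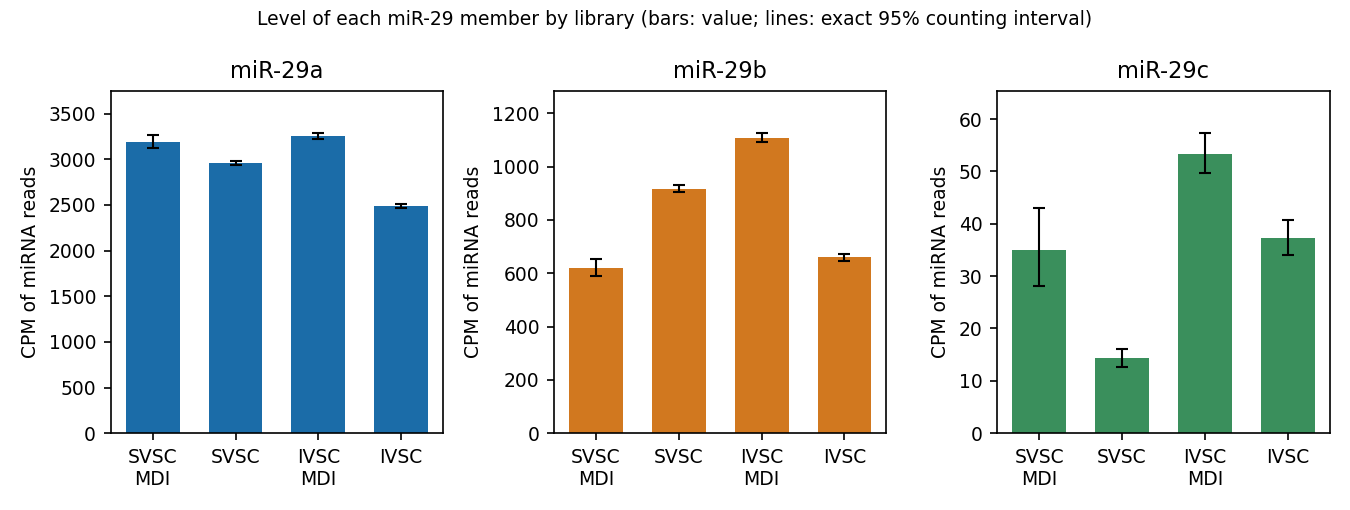
Level of miR-29a, miR-29b and miR-29c (vertical axes, CPM of miRNA reads, each from 0) in the 4 libraries, 1 library per bar, with exact 95% counting intervals as lines. miR-29a runs from 2489 to 3255 CPM, miR-29b from 621 to 1108 CPM and miR-29c from 14.3 to 53.4 CPM, the last lowest in SVSC.

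The reads of the 3 hairpins were of different kinds. The deposited files sort them into mature, star and other hairpin reads, the last called here the rest of the hairpin, and count the mature reads that match the annotated sequence exactly. On miR-29a, 96.5% (SVSC MDI), 95.9% (SVSC), 97.5% (IVSC MDI) and 97.5% (IVSC) of reads were mature. Of these mature reads only 0.668%, 1.20%, 0.790% and 1.61%, in the same libraries, matched the annotated sequence exactly. Over the 4 libraries that share was 1.12%, the 7th lowest of 143 miRNAs with at least 100 mature reads, whose median was 49.5%. Nearly every mature miR-29a read thus differed from the annotated sequence in length or in bases, which the files do not tell apart.

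miR-29b was the reverse in its classes: 94.99% (SVSC MDI), 95.7% (SVSC), 94.9% (IVSC MDI) and 93.8% (IVSC) of its reads lay on the rest of the hairpin. Mature reads numbered 80, 706, 844 and 546, of which 8, 72, 56 and 35 were exact, in the same libraries. Of 169 miRNAs with at least 100 reads over the libraries, 47 (27.8%) held more than 50% of reads outside the mature and star classes, and miR-29b ranked 25 by that share. The files do not say where on the hairpin these reads lie, so the arm they come from is unknown, and whether they carry the miR-29 seed cannot be told here.

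miR-29c lay between these. Mature reads made up 72.2% (61.8 to 81.1) in SVSC MDI, 77.3% (71.7 to 82.3) in SVSC, 88.6% (86.2 to 90.8) in IVSC MDI and 87.4% (84.2 to 90.2) in IVSC. Of the mature reads, 55.4%, 63.6%, 54.6% and 73.5% were exact in the same libraries. The fat-derived libraries had the larger share on the rest of the hairpin, 27.8% in SVSC MDI and 22.7% in SVSC, against 11.4% in IVSC MDI and 12.6% in IVSC, and neither interval reached that of the muscle-derived library of the same state. No member had a star read in any library. In SVSC MDI, the shallowest, the upper interval limits of the star share were 0.0449% (miR-29a), 0.231% (miR-29b) and 4.02% (miR-29c). These limits cover only reads the files class as star, because the arm of reads on the rest of the hairpin is unknown. The mature reads of all 3 members were listed as unique to their hairpin, so none was shared with another entry.

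**Figure D2:**
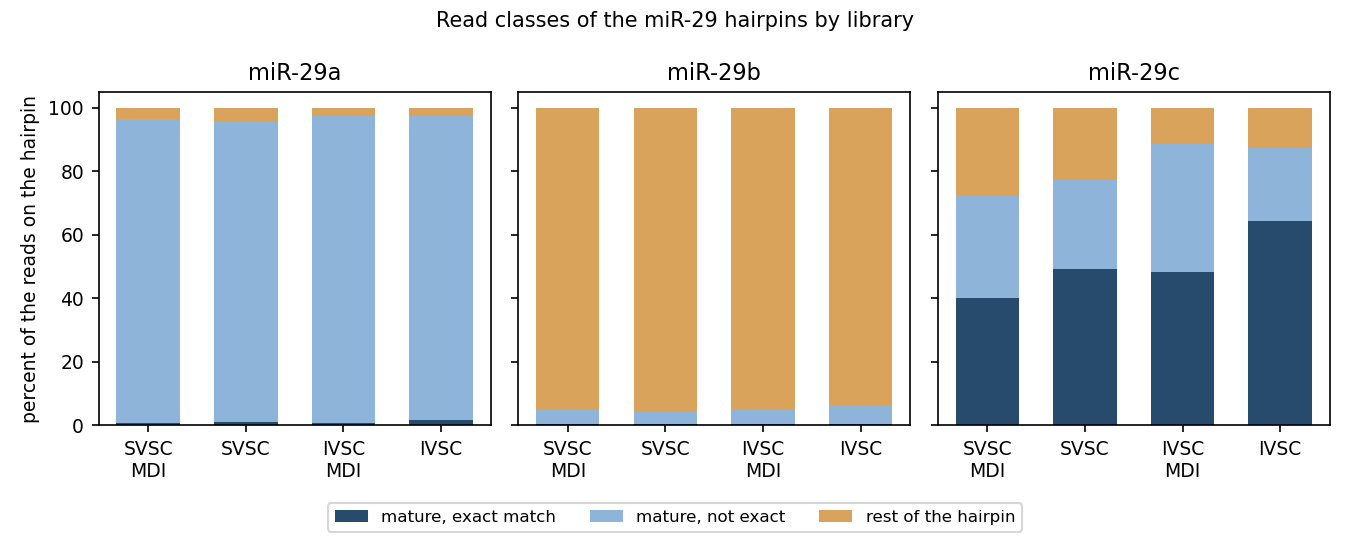
Percent of the reads on each miR-29 hairpin (vertical axis) that were exact mature, mature but not exact, or on the rest of the hairpin, in the 4 libraries. miR-29a is almost all inexact mature reads (at least 95.9% mature), miR-29b is 93.8% to 95.7% rest of the hairpin, and miR-29c is 72.2% to 88.6% mature.

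Induction of the muscle-derived cells was examined first. All 3 members were more abundant in IVSC MDI than in IVSC, and none reached 2-fold. The ratio was 1.31 (1.29 to 1.33) for miR-29a, 1.68 (1.64 to 1.72) for miR-29b and 1.44 (1.28 to 1.61) for miR-29c, and 1.39 (1.37 to 1.40) for the summed family. With 1 library per group these ratios have no replicate check, and none is given a p-value. Comparisons took in miRNAs that reached 10 CPM in either library, and a miRNA was called where the change was 2-fold or more with an interval that excluded 1. By this rule 40.1% of 152 miRNAs were called in IVSC MDI over IVSC, 16.4% higher and 23.7% lower, and 0 of 3 members. An interval that excludes 1 is no distinction at this depth, since 92.8% of the miRNAs had one here, and 94.5%, 94.6% and 87.1% had one in SVSC MDI over SVSC, SVSC over IVSC and SVSC MDI over IVSC MDI. The members' log2 ratios of 0.39, 0.75 and 0.52 ranked 46, 35 and 44 from the highest, against a median of -0.04 over the 152. They were positive under all 5 scalings tried, up to 0.61, 0.97 and 0.74 when counts were scaled to all reads of the file. In bulk RNA, more cells of a type and more RNA per cell cannot be told apart.

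Each read class gave the same direction in IVSC, apart from exact reads of miR-29a, but not every interval excluded 1. Scaled to exact reads, the exact reads of miR-29b had a ratio of 1.52 (0.980 to 2.39) and those of miR-29c 1.15 (0.988 to 1.34). On the rest of the hairpin miR-29c had 1.30 (0.930 to 1.83), scaled to all miRNA reads. Scaled to all miRNA reads, mature reads had ratios of 1.31, 1.38 and 1.46 for miR-29a, miR-29b and miR-29c, and the remaining hairpin reads had 1.31, 1.70 and 1.30, the last on only 90 and 62 reads. Scaled to their own total, mature reads had ratios of 1.37, 1.45 and 1.53. Exact mature reads of miR-29a numbered 371 in IVSC MDI against 516 in IVSC, while all its mature reads numbered 46985 and 32146. Exact mature reads of miR-29c numbered 383 in IVSC MDI and 317 in IVSC. The exact share of mature reads was lower in IVSC MDI with intervals that do not overlap for miR-29a and miR-29c, as it was for 42.1% of 133 miRNAs with 50 or more mature reads in each library, and it was higher for 23.3%. For miR-29b it was 6.64% in IVSC MDI and 6.41% in IVSC, with intervals that overlap.

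In the fat-derived cells, MDI was accompanied by a different shift for each member. miR-29c rose 2.45-fold (1.91 to 3.13), from counts of 90 in SVSC MDI and 256 in SVSC, a library with far more reads. miR-29a had a ratio of 1.08 (1.05 to 1.11) and miR-29b one of 0.677 (0.642 to 0.712), neither called, and the summed family one of 0.990 (0.969 to 1.01). By the same rule 56.2% of 146 miRNAs were called in SVSC MDI over SVSC, 34.2% higher and 21.9% lower, so 1 call among 3 members is near the background. The log2 ratios of 0.11, -0.56 and 1.29 ranked 89, 103 and 43 from the highest, and the median over the 146 was 0.41.

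The other 4 scalings moved every log2 ratio of this comparison by between -0.40 and -0.50. The direction of miR-29a turned, to log2 ratios between -0.39 and -0.29. miR-29c no longer reached 2-fold under the same 4, with ratios between 1.73 and 1.86. miR-29b passed 2-fold lower under TMM (ratio 0.477) and all reads (0.483). miR-29b was below 1 and miR-29c above 1 under all 5. On mature reads scaled to their own total, the ratio of miR-29b was 0.977 (0.766 to 1.23), on 80 reads in SVSC MDI and 706 in SVSC, so its lower level was not seen there. Scaled to all miRNA reads, a setting chosen after seeing the data, the same mature reads gave 0.790 (0.619 to 0.996). miR-29a and miR-29c had ratios of 1.34 (1.31 to 1.38) and 2.83 (2.11 to 3.77) on mature reads scaled to their own total. The exact share of miR-29a mature reads was lower in SVSC MDI, with intervals that do not overlap (41.5% of 106 miRNAs were lower in this way and 23.6% higher), and its exact reads numbered 53 in SVSC MDI and 611 in SVSC. The share of Ensembl non-coding RNA was highest in SVSC MDI (38.5%, against 15.7% in SVSC), and its part in these ratios was not tested.

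**Figure D3:**
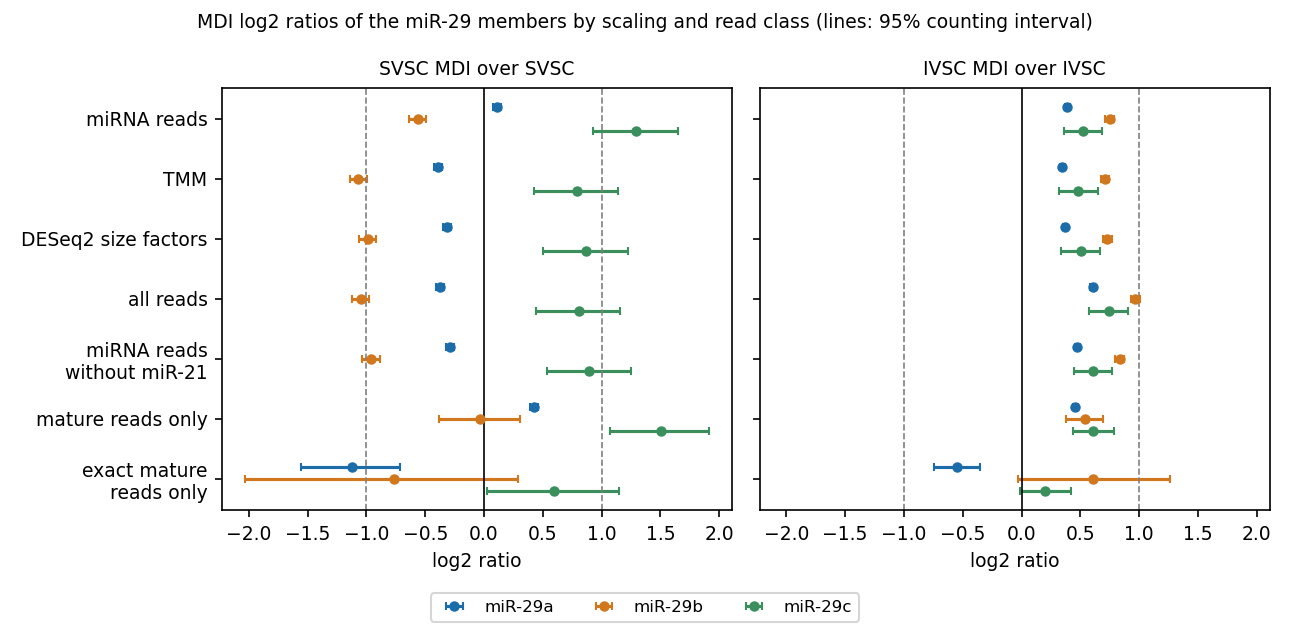
MDI log2 ratios of the 3 members (horizontal axes) in SVSC and IVSC under 5 scalings of all hairpin reads and on mature or exact mature reads only, with 95% counting intervals and dashed lines at 2-fold. In IVSC the points lie above 0 except exact miR-29a reads (-0.55), whereas in SVSC miR-29c stays above 0, miR-29b below it (close to 0 on mature reads), and miR-29a changes side.

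The response to MDI was next compared between the cultures. The log2 change of miR-29b was -0.56 in SVSC and 0.75 in IVSC, a difference of -1.31 (-1.39 to -1.23). Differences of at least 1 log2 unit with an interval that excludes 0 were found for 46.5% of 155 miRNAs, 12.3% lower in SVSC, and opposite signs in the cultures for 29.7%. The difference of miR-29b ranked 143 from the highest of 155 and widened under the other 4 scalings, to between -1.72 and -2.02. It narrowed to -0.57 (-0.94 to -0.20) on mature reads scaled to their own total and to -0.81 (-1.18 to -0.44) on mature reads scaled to all miRNA reads. On mature reads scaled to their own total, the log2 change of miR-29b in SVSC was -0.033, with an interval that includes 0. Opposite directions were thus not shown with that scaling. Scaled to all miRNA reads, mature reads had ratios of 0.790 (0.619 to 0.996) in SVSC and 1.38 (1.24 to 1.54) in IVSC, in opposite directions. For miR-29a the difference was -0.28 (-0.32 to -0.24), it reached -0.98 with scaling to all reads, and on mature reads scaled to their own total it was -0.029 (-0.069 to 0.011), an interval that includes 0. That of miR-29c was 0.77 (0.39 to 1.15), and under the other 4 scalings it lay between 0.07 and 0.36 with intervals that include 0.

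Origin was compared before induction. Undifferentiated fat-derived cells had less miR-29c than muscle-derived ones, 2.61-fold less (2.24 to 3.04). miR-29a had a ratio of 1.19 (1.17 to 1.21) in SVSC over IVSC and miR-29b one of 1.39 (1.35 to 1.43), neither called. By the call rule 28.4% of 148 miRNAs were called, 7.43% higher and 20.9% lower, the lower share being the background for miR-29c. Its log2 ratio of -1.38 ranked 125 from the highest, and the median over the 148 was -0.25. miR-29c was called lower under all 5 scalings (log2 ratio between -1.38 and -1.02) and on mature reads (ratio 0.293 scaled to mature reads) and exact reads (0.332). On the rest of the hairpin it had 58 reads in SVSC and 62 in IVSC, a ratio of 0.691 (0.475 to 1.01), with no call. miR-29b was above 1 through reads on the rest of the hairpin, with a ratio of 1.42 (1.38 to 1.46). On its mature reads, 706 in SVSC and 546 in IVSC, the ratio was below 1, 0.824 (0.736 to 0.923) scaled to mature reads and 0.955 (0.853 to 1.07) scaled to all miRNA reads, the second chosen after seeing the data. The ratio of miR-29a on mature reads scaled to their own total was 1.01 (0.995 to 1.02).

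The 5 skeletal muscle miRNAs (miR-1, miR-133a, miR-133b, miR-206, miR-499) all had reads in every library. They summed to 888 CPM in SVSC MDI, 1853 CPM in SVSC, 1137 CPM in IVSC MDI and 6275 CPM in IVSC. Most reads of the list were miR-1 in SVSC (32606 of 33233) and miR-206 in IVSC (64588 of 83158). In SVSC over IVSC 3 of 5 were called lower and none higher, against 20.9% lower and 7.43% higher over all miRNAs compared. Short of a call, miR-1 was higher in SVSC, at a ratio of 1.46 (1.44 to 1.49), and miR-499 lower, at 0.721 (0.579 to 0.899). In IVSC MDI over IVSC 2 fell, against 23.7% of all compared. miR-206, specific to skeletal muscle and its precursors, had 4 reads in SVSC MDI, 50 in SVSC, 2068 in IVSC MDI and 64588 in IVSC. The sum was highest in IVSC and miR-29c in IVSC MDI, but the muscle miRNAs had no common order to set miR-29c against. miR-133a, for example, had 198.6 CPM in SVSC MDI and 85.5 CPM in IVSC MDI. The part of muscle-lineage cells in the level of any miR-29 member was not tested.

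After MDI no member was called between origins. The ratio in SVSC MDI over IVSC MDI was 0.981 (0.958 to 1.00) for miR-29a, 0.560 (0.532 to 0.590) for miR-29b and 0.655 (0.521 to 0.815) for miR-29c, with 27.9% of 147 miRNAs called, 17.7% higher and 10.2% lower. The log2 ratios of -0.03, -0.84 and -0.61 ranked 87, 126 and 120 from the highest, with a median of 0.13 over the 147. All 3 were below 0 under all 5 scalings. With scaling to all reads, under which every log2 ratio moved by -0.52, miR-29b and miR-29c were called lower, at ratios of 0.391 and 0.457. On mature reads, 80 in SVSC MDI and 844 in IVSC MDI, miR-29b had a ratio of 0.556 (0.436 to 0.699) scaled to mature reads and 0.546 (0.428 to 0.687) scaled to all miRNA reads. On the rest of its hairpin miR-29c had a ratio above 1, 1.60 (0.983 to 2.51), from 25 and 90 reads.

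The share of reads on the rest of the hairpin was higher in SVSC than in IVSC, with intervals that do not overlap, for all 3 members. It was 4.07% in SVSC and 2.54% in IVSC for miR-29a, 95.7% and 93.8% for miR-29b, and 22.7% and 12.6% for miR-29c. Of 151 miRNAs with 50 or more reads in each library, 27.2% were higher in this way and 24.5% lower. Between the MDI libraries it was higher in SVSC MDI for miR-29a (3.53% and 2.55% in IVSC MDI) and miR-29c (27.8% and 11.4%), where 29.7% of 128 miRNAs were higher and 8.59% lower. With MDI in IVSC it was higher for miR-29b alone of the members, 94.9% in IVSC MDI and 93.8% in IVSC (16.6% of 157 miRNAs higher and 33.8% lower). With MDI in SVSC no member's intervals were apart, against 30.7% of 127 miRNAs higher and 24.4% lower. The exact share of mature reads was lower in SVSC than in IVSC for miR-29a, 1.20% and 1.61% (28.2% of 124 miRNAs lower and 25.8% higher), and for no member between SVSC MDI and IVSC MDI (24.3% of 107 lower and 20.6% higher).

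**Figure D4:**
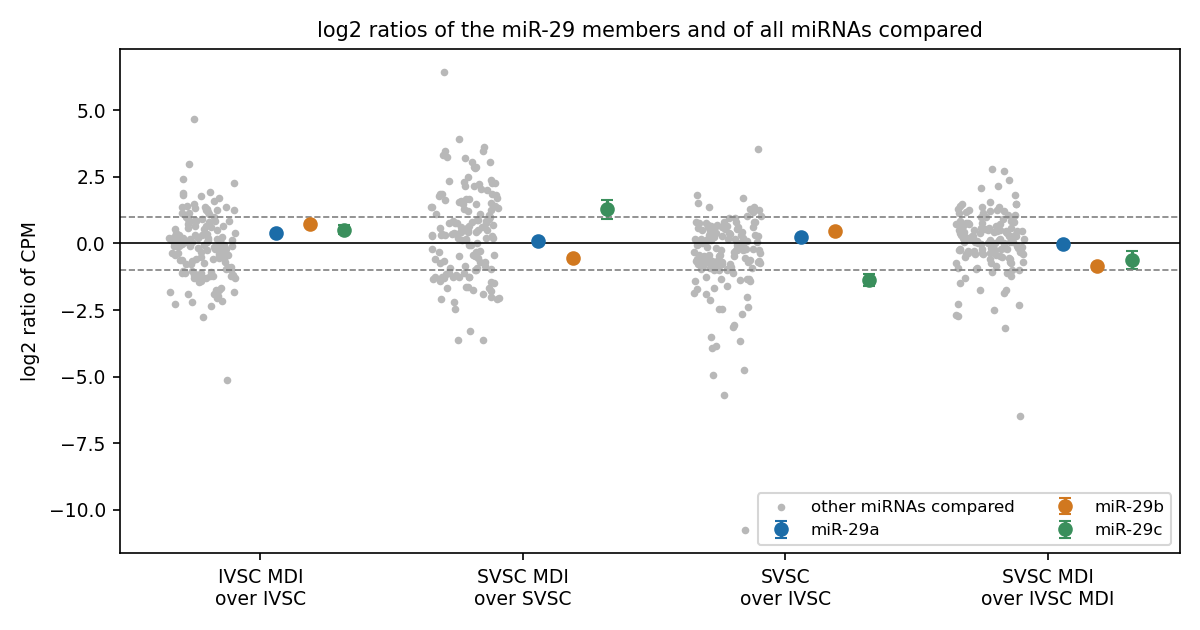
log2 ratio of CPM (vertical axis) in the 4 comparisons for the miR-29 members (coloured, with 95% counting intervals) and all other miRNAs compared (grey), with dashed lines at 2-fold. miR-29c passes 2-fold in SVSC MDI over SVSC (1.29) and in SVSC over IVSC (-1.38), and miR-29a stays within 0.39 of 0.

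Ratios between members of a library do not depend on the scaling. Per 100 reads of miR-29a, its cluster neighbour miR-29b had 19.4 reads (18.4 to 20.5) in SVSC MDI, 31.0 (30.5 to 31.5) in SVSC, 34.0 (33.4 to 34.6) in IVSC MDI and 26.5 (25.9 to 27.1) in IVSC. The hairpins are 86 nt (miR-29a), 81 nt (miR-29b) and 88 nt (miR-29c) in RefSeq, and per nucleotide of hairpin the miR-29b values became 20.6, 32.9, 36.1 and 28.1. The ratio of the neighbours was 1.28 times as high in IVSC MDI as in IVSC (1.25 to 1.32) and 0.627 times as high in SVSC MDI as in SVSC (0.592 to 0.663). It was lowest in SVSC MDI, and no 2 of the 4 intervals overlapped. These intervals cover counting error alone, and the share of other miRNA pairs whose intervals separate in this way was not tested.

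On mature reads the neighbours stood further apart. miR-29b had 1.01 mature reads per 100 of miR-29a (0.799 to 1.26) in SVSC MDI, 1.39 (1.29 to 1.49) in SVSC, 1.80 (1.68 to 1.92) in IVSC MDI and 1.70 (1.56 to 1.85) in IVSC. The change with MDI was 1.06 (0.949 to 1.18) in IVSC and 0.727 (0.577 to 0.918) in SVSC. SVSC MDI was the lowest library by either class, and the gap between IVSC MDI and IVSC was within counting error on mature reads.

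miR-29c had 1.10 reads per 100 of miR-29a (0.880 to 1.35) in SVSC MDI, 0.482 (0.425 to 0.545) in SVSC, 1.64 (1.53 to 1.76) in IVSC MDI and 1.49 (1.36 to 1.63) in IVSC. Relative to miR-29a, it was 2.27 times as high in SVSC MDI as in SVSC (1.78 to 2.89), and 2.11 times (1.59 to 2.79) on mature reads. In SVSC over IVSC the same quantity was 0.323 (0.277 to 0.376), and 0.290 (0.245 to 0.343) on mature reads. With MDI in IVSC it was 1.10 (0.980 to 1.23). The low proportion of miR-29c in undifferentiated fat-derived cells was seen on all hairpin reads and on mature reads. These share most of their reads, since 77.3% of miR-29c reads in SVSC and 87.4% in IVSC were mature. On the rest of the hairpin alone, scaled to all miRNA reads, miR-29c in SVSC over IVSC was not called, at 0.691 (0.475 to 1.01).

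**Figure D5:**
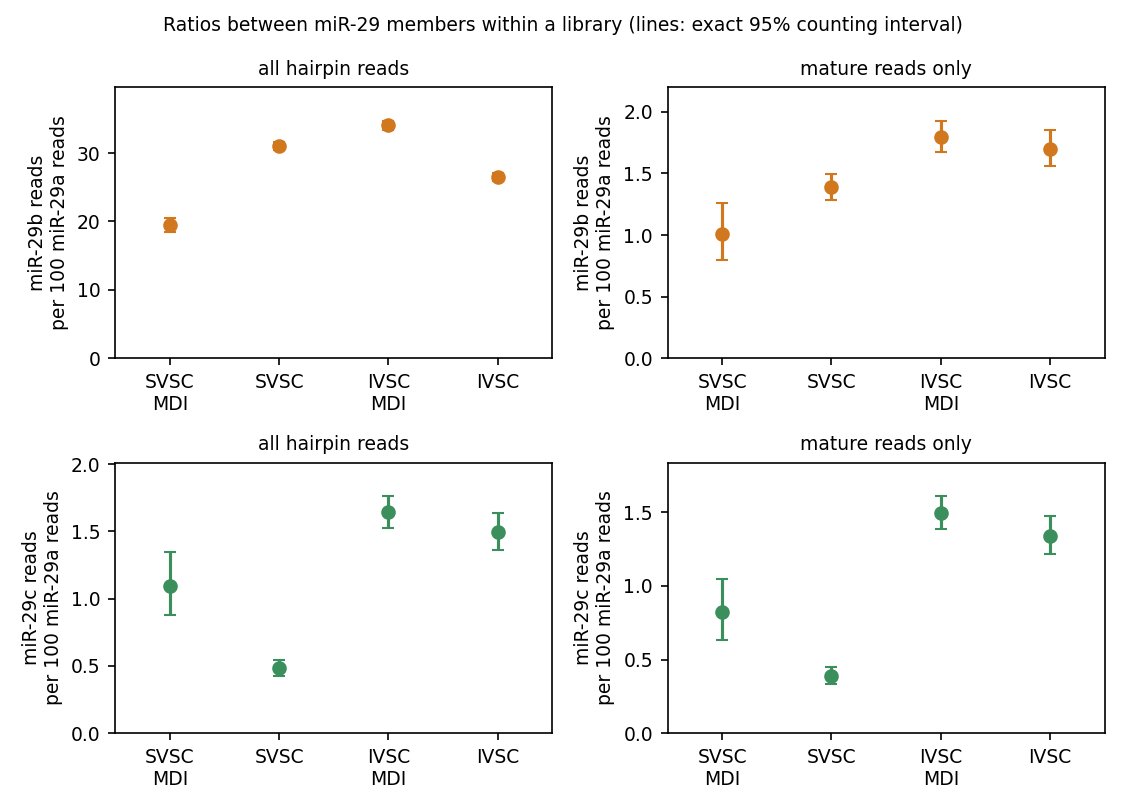
Reads of miR-29b (top) and miR-29c (bottom) per 100 reads of miR-29a (vertical axes, from 0) in the 4 libraries, on all hairpin reads and on mature reads, with exact 95% counting intervals. miR-29b per miR-29a is lowest in SVSC MDI (19.4 and 1.01) and miR-29c per miR-29a is lowest in SVSC (0.482 and 0.389).

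A test of effects shared by both cultures was made on all 4 libraries with edgeR's quasi-likelihood F test. Culture and MDI state were in 1 additive model with 1 residual degree of freedom. The spread it used was the difference in MDI response between the cultures, pooled over miRNAs, and not a spread between replicates. For MDI, the log2 ratio was 0.08 (SE 0.55, Benjamini-Hochberg adjusted p = 0.971) for miR-29a, -0.08 (SE 0.58, adjusted p = 0.978) for miR-29b and 0.74 (SE 0.84, adjusted p = 0.648) for miR-29c. For origin, SVSC over IVSC, the edgeR values were 0.27 (SE 0.55, adjusted p = 0.996), -0.02 (SE 0.58, adjusted p = 0.996) and -0.84 (SE 0.84, adjusted p = 0.939). No member passed 0.05, where 10.6% of 179 miRNAs passed for MDI (6.15% higher and 4.47% lower) and 2.79% for origin (0.559% higher and 2.23% lower). None of the 3 had an unadjusted p under 0.05, and DESeq2 passed none of them for either effect. The level of miR-29c was higher with MDI in both cultures, and lower in fat-derived cells in both states, under all 5 scalings.

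The miRNAs most like each member over the 4 libraries were sought among those at 100 CPM or more in all of them, by the Euclidean distance between centred log2 CPM profiles. For miR-29a, of 81 candidates, the nearest were miR-98, a let-7 family member (distance 0.18), miR-1307 (0.26) and let-7i (0.32), and miR-29b came 15th (0.61). For miR-29b they were let-7g (0.34), miR-24 (0.45) and miR-30e (0.46), with miR-29a 7th. For miR-29c, of 82 candidates, they were miR-32 (0.74), miR-22 (0.78) and miR-23a (0.79), while miR-29a came 26th (1.39) and miR-29b 38th (1.55). miR-32 had 619 CPM in SVSC MDI, 128 CPM in SVSC, 761 CPM in IVSC MDI and 422 CPM in IVSC, the same order as miR-29c apart from SVSC MDI and IVSC. These distances rest on 4 points that share their libraries.

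Other miRNAs reported to act on the processes miR-29 acts on were counted by the same rule. Over all miRNAs compared, 16.4% were called higher and 23.7% lower with MDI in IVSC, and 34.2% and 21.9% with MDI in SVSC. The shares were 7.43% higher and 20.9% lower in SVSC over IVSC, and 17.7% and 10.2% in SVSC MDI over IVSC MDI. Of 17 compared miRNAs that repress collagens or other matrix regulators, 3 rose and 2 fell in IVSC MDI over IVSC (median log2 ratio 0.14, against -0.04 over all). With MDI in SVSC 5 rose and 3 fell (0.43, against 0.41). miR-145, a smooth muscle miRNA, rose 5.30-fold in IVSC and 8.31-fold in SVSC. miR-30c rose 2.41-fold in IVSC, and miR-133a 9.18-fold in SVSC. miR-129 fell 2.38-fold and let-7a 2.19-fold in SVSC. By origin before induction, 2 were higher and 3 lower in SVSC (-0.24, against -0.25), with miR-129 11.6-fold higher, let-7a 2.83-fold higher and miR-30a 3.18-fold lower. After MDI, 4 were higher in SVSC and 1 lower (0.11, against 0.13), with miR-218 6.67-fold and miR-129 5.17-fold higher and miR-196b 9.15-fold lower. The named calls held under all 5 scalings, but the number of matrix-linked miRNAs higher in SVSC than in IVSC ran from 2 to 6 over them.

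For the lists that follow, the medians over all miRNAs compared were -0.04 with MDI in IVSC and 0.41 with MDI in SVSC. They were -0.25 in SVSC over IVSC and 0.13 in SVSC MDI over IVSC MDI. The shares called higher and lower were 16.4% and 23.7% with MDI in IVSC, and 34.2% and 21.9% with MDI in SVSC. In SVSC over IVSC they were 7.43% and 20.9%, and in SVSC MDI over IVSC MDI 17.7% and 10.2%. Of 7 profibrotic miRNAs compared, miR-34a rose with MDI 3.42-fold in IVSC and 4.51-fold in SVSC. miR-214 fell 2.11-fold in IVSC, under 3 of 5 scalings, and miR-199a rose 2.16-fold in SVSC under scaling to miRNA reads alone. In all, 1 rose and 1 fell in IVSC (median -0.04), and 3 rose and 1 fell in SVSC (0.28), the number that rose running from 1 to 3 over the scalings. None was called in SVSC over IVSC (-0.23), and 1 was higher and 1 lower in SVSC MDI over IVSC MDI (0.40), miR-214 2.20-fold higher under 3 of 5 scalings. Of 7 miRNAs linked to insulin signalling, 1 fell in IVSC (miR-320, 2.26-fold, short of 2-fold under 1 scaling; median 0.02). In SVSC 3 fell (0.28), miR-320 3.47-fold and miR-103, which represses the insulin receptor regulator caveolin-1 in mouse, 3.09-fold. Before induction, 3 were higher in SVSC than in IVSC and 1 lower (0.28), with miR-103 2.60-fold and miR-27b 2.58-fold higher and miR-126 2.55-fold lower, the last under 4 of 5 scalings. After it, miR-27b alone was higher in SVSC MDI than in IVSC MDI, 2.02-fold and under 1 scaling only (0.01).

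Of 7 miRNAs reported to repress DNA methyltransferases, 2 fell in IVSC (median -0.47), miR-148b 3.90-fold and miR-152 2.35-fold, both of a family known to repress DNMT1. In SVSC 3 fell and 2 rose (0.34), miR-148b 4.57-fold and miR-185 2.52-fold lower, and miR-148a 2.60-fold higher, the last under scaling to miRNA reads alone. The number that rose ran from 0 to 2 over the scalings, and over all miRNAs compared 34.2% were higher and 21.9% lower, with a median of 0.41. By origin, 2 were lower in SVSC than in IVSC (-0.76), miR-148a 2.69-fold, and none was called in SVSC MDI over IVSC MDI (-0.09). Of the 5 skeletal muscle miRNAs, miR-206 fell 34.9-fold in IVSC (2 fell; median -0.49). In SVSC, over 4 compared, 2 rose and 1 fell (1.69), miR-133a 9.18-fold higher and miR-1 2.75-fold lower. Their median was -1.85 in SVSC over IVSC. Between the MDI libraries, 1 was higher in SVSC (miR-133a, 2.32-fold, under 4 of 5 scalings) and 1 lower (miR-206), with a median of -0.34.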

How the data were processed

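Small RNA of 16 to 35 nt, from about 10 µg of total RNA, was amplified over 12 PCR cycles and read for 36 cycles in 4 libraries, per the labels' protocols. The deposited values are counts of reads per feature, per the file headers, on Sus scrofa hairpins, Ensembl non-coding RNAs (Sscrofa9.61), piRNAs and Rfam families. In the SVSC library, 1 other deposited column (the uniquely matching mature reads) holds a damaged value for 1 Rfam tRNA entry, which was not used, and whole counts for hairpins. The submitters' processing notes name the build mm9 without a role, and neither the aligner nor the mismatches allowed are stated in the sources used. Entries without a resource name (3 in SVSC, 1 in SVSC MDI) were left out.

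Reads of hairpin copies were counted once (largest copy plus reads unique to the others, and for exact reads the largest copy alone). The miR-29 members have 1 entry each. CPM was taken over miRNA reads, and ratios were given exact 95% Clopper-Pearson intervals (SciPy 1.17.1). A count of 0 was set to 3 reads, equal to 1.17, 0.167, 0.203 and 0.226 CPM in SVSC MDI, SVSC, IVSC MDI and IVSC. Differences of log2 ratios and of member ratios used normal intervals from the counts. Shared effects were fitted with edgeR 4.0.16 (filterByExpr, TMM, quasi-likelihood, R 4.3.3), and with DESeq2 1.42.0 as the other tool. The edgeR p-values reflect the spread among these libraries alone, which without replicates is the difference in MDI response between the cultures. That spread was pooled over the miRNAs tested (common dispersion 0.196, infinite prior degrees of freedom). The edgeR step was tested on simulated counts, with larger changes than the members showed and a smaller spread than was fitted. That run does not show how well changes of the members' size would be found, and DESeq2 was not tested in this way. The 5 scalings were miRNA reads, TMM, DESeq2 size factors, all reads, and miRNA reads without miR-21. All reads means the counts summed over all named entries, in which a read on more than 1 entry can count more than once. The members, lists and tests were chosen with earlier results of these data known. All members were named, and of each list the called miRNAs at 100 CPM or more with the largest change, at most 2 per direction.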

Additional observations from a re-analysis of the deposited data

Results flagged for a closer look

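On all hairpin reads, the MDI response of miR-29b went in opposite directions in the cultures, with a log2 ratio of -0.56 in SVSC and 0.75 in IVSC and a difference of -1.31. With 1 library per group, this difference was not tested against spread between cultures. On this hairpin 94.99% (SVSC MDI), 95.7% (SVSC), 94.9% (IVSC MDI) and 93.8% (IVSC) of reads lay outside the mature miRNA. On mature reads scaled to their own total the log2 ratio in SVSC was -0.033, a ratio of 0.977 (0.766 to 1.23). Opposite directions were thus not shown with that scaling. Scaled to all miRNA reads, a setting chosen after seeing the data, mature reads did differ in direction. Their ratios were then 0.790 (0.619 to 0.996) in SVSC and 1.38 (1.24 to 1.54) in IVSC. Opposite signs were seen for 29.7% of the 155 miRNAs compared.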

How the results depend on the processing

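Of 135 recomputed values (15 member ratios and differences under 9 settings), 109 kept their direction and their side of 2-fold. All 15 did so when hairpin copies were summed, but that setting could hardly differ. Each member has 1 entry, so its reads stayed the same and only the library totals moved. The settings on mature or remaining hairpin reads scaled to all miRNA reads were added after seeing the data. Causes were not tested. In SVSC MDI over SVSC, the log2 ratio of miR-29a turned to -0.39 (TMM), -0.31 (DESeq2 size factors), -0.37 (all reads), -0.29 (without miR-21), -1.12 (exact reads) and -0.10 (rest of the hairpin). That of miR-29c lost its call at 0.79, 0.87, 0.81, 0.89 (the same 4 scalings) and 0.60 (exact reads), and that of miR-29b gained one at -1.07 (TMM) and -1.05 (all reads). In IVSC MDI over IVSC, miR-29a turned to -0.55 on exact reads. In SVSC over IVSC, miR-29a turned to -0.015 (exact reads) and miR-29b to -0.28 (mature reads) and -0.066 (mature reads over all miRNA reads), and miR-29c lost its call on the rest of the hairpin (-0.53). In SVSC MDI over IVSC MDI, the rest of the hairpin turned miR-29a to 0.44 and miR-29c to 0.68, and calls were gained by miR-29b (-1.36, all reads) and miR-29c (-1.13, all reads, and -1.19, exact reads). The SVSC minus IVSC difference of the MDI log2 ratio fell short for miR-29b at -0.57 and -0.81 (both mature settings) and passed for miR-29c at 1.21 (rest of the hairpin).

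On mature reads alone miR-29a took 98.2%, 98.3%, 96.8% and 97.1% of the family in SVSC MDI, SVSC, IVSC MDI and IVSC (83.0%, 76.1%, 73.7% and 78.1% on all reads), miR-29b 0.991%, 1.36%, 1.74% and 1.65% (16.1%, 23.6%, 25.1% and 20.7%) and miR-29c 1.44% and 1.30% in IVSC MDI and IVSC (1.21% and 1.17%). miR-29b per 100 miR-29a was then 1.01, 1.39, 1.80 and 1.70. In edgeR, the shared MDI effect turned to -0.023 for miR-29a without a filter and to 0.093 for miR-29b without TMM, far from significance (adjusted p = 0.983 and 0.964).

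Counts of calls that moved by over 1.5 times, with the count under scaling to miRNA reads in brackets, were, in IVSC MDI over IVSC, 21 lower with all reads (36), and in SVSC MDI over SVSC 33 higher with all reads (50). In SVSC over IVSC, 24 (TMM), 28 (DESeq2 size factors) and 24 (without miR-21) were higher (11). In SVSC MDI over IVSC MDI with all reads 7 were higher (26) and 29 lower (15), and without miR-21 25 were lower (15). The edgeR test called 11 miRNAs higher and 8 lower with MDI. Without TMM 5 were lower, with DESeq2 16 were higher and 20 lower, and on mature reads 18 and 13. For origin edgeR called 1 higher and 4 lower, and DESeq2 2 and 8. No paired analysis was possible because each group has 1 library and the labels give no replicate numbers to pair libraries by, although the edgeR fit holds culture as a term in its MDI effect. Leaving out a library leaves no residual degrees of freedom. Depth limits miR-29c most, with 90 reads in SVSC MDI.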

Other observations

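The Rfam entries of the mir-29 family, which the comparisons leave out, held few reads. The largest entry had 1 read in SVSC MDI, 34 in SVSC, 1 in IVSC MDI and 1 in IVSC. Summed over entries there were 1, 72, 4 and 2 reads, of which 1, 5, 1 and 0 were listed as unique to an entry, so most of the sum in SVSC was counted on more than 1 entry.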
